A study of Mus musculus with 6 samples.

Results

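Trim66 and its 3 paralogs Trim24, Trim28 and Trim33 make up the TIF1 family of transcriptional corepressors, and they were read on 6 Affymetrix arrays of mouse pancreatic islets, the endocrine cell clusters that hold the insulin-producing β cells. The members were the probe sets whose single gene symbol was one of these 4 names, which gave 4 probe sets for 4 genes out of 41345 probe sets and 22180 named genes in the table. The family was picked because Trim66 was higher in Sel1L-deficient islets on these same arrays, so the values of Trim66 in that contrast are given as a description with no test. The other 3 genes came in as paralogs and not for their own values.

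The study set islets of mice that lacked Sel1L in β cells (3 arrays) beside islets labelled wildtype (3 arrays), all at 5 weeks of age on the C57BL/6J background and all labelled female. Sel1L is the adaptor of the HRD1 ubiquitin ligase that clears misfolded proteins from the endoplasmic reticulum (ER). Per the labels' protocols, both groups carried floxed Sel1L alleles, and the deficient mice also carried Ins1Cre, a Cre recombinase inserted at the insulin gene Ins1. The labelled wildtype mice were their littermates without Cre, so a Cre-only group was not analysed here. Cre from Ins1 acts in β cells, while islets also hold α, δ, endothelial and other cells in which Sel1L was kept. Islets recovered overnight in culture before RNA extraction. The number of animals behind each array was not given in the labels.

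TIF1 proteins carry a plant homeodomain finger and a bromodomain next to the B-box and coiled-coil parts of the wider TRIM (tripartite motif) family. Trim28, also called KAP1, is brought to DNA by KRAB zinc finger proteins and recruits the methyltransferase Setdb1, HP1 proteins and the NuRD complex, which silence retroviral elements and guard imprinted genes. Trim24 binds nuclear receptors such as the retinoic acid receptors and acts as a ubiquitin ligase for p53. Trim33 acts in TGF-β signalling, where it binds Smad2 and Smad3 and can ubiquitylate Smad4. Trim66 is the least studied member and binds HP1γ.

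The start regions of the family members are shown to set their base composition, above all their CpGs, side by side, a property that the choice of the members did not use. RefSeq entries of assembly GRCm38.p6, 250 bases before to 50 after a start, were found for Trim24, Trim28 and Trim66. They are printed 5′ to 3′ on the gene's strand with each CpG in capitals, at chr7:109508085-109508384 (minus strand) for Trim66, chr7:13023902-13024201 (plus strand) for Trim28 and chr6:37870561-37870860 (plus strand) for Trim24.
Trim66: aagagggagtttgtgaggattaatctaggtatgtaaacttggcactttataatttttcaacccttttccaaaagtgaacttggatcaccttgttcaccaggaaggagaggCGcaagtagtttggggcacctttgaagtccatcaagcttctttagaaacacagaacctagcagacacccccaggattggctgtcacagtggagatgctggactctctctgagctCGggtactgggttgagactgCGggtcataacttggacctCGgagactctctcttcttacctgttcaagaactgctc
Trim28: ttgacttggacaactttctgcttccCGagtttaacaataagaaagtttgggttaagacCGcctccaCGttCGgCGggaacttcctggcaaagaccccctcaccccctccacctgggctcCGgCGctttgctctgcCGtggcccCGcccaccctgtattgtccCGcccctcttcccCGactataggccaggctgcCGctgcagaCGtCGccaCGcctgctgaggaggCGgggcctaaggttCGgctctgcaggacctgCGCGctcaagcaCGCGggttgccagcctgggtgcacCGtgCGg
Trim24: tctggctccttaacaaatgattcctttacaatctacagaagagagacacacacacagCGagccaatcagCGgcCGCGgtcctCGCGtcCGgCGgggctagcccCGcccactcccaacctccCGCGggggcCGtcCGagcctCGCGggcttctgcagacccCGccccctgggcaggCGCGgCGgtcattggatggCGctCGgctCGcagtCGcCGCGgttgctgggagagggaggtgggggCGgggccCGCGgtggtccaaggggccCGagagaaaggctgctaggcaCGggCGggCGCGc

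The Trim66 window held 4 CpGs with a GC content of 47.0%, against 23 CpGs and 64.0% for Trim28 and 33 CpGs and 70.3% for Trim24. Of the 32851 windows in the RefSeq table, 31.4% had fewer CpGs than that of Trim66, 78.5% fewer than that of Trim28 and 91.4% fewer than that of Trim24, with a median of 7. The windows of Trim28 and Trim24 lie at the outer end of the gene. That of Trim66 lies inside the gene's span, so it belongs to an inner start, and a second, inner entry of Trim24 held 1 CpG. Motifs tied to the unfolded protein response (UPR) and the E-box were searched on both strands, and none of them contains another. The UPR element core TGACGTGG, held by 0.676% of all windows, the C/EBP-ATF site TTGCATCA (0.895%) and the E-box CACGTG (7.15%) were in none of the members' windows. The arrays do not say which start was used.

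Trim66 (probe set 17494868, chromosome 7) read 3.46, 2.99 and 3.09 in wildtype replicates 1, 2 and 3 and 4.55, 4.80 and 4.49 in Sel1L-deficient replicates 1, 2 and 3, as log2 values summarised by RMA, a method that corrects, normalizes and combines probes. The 3 Sel1L-deficient arrays lay above all 3 wildtype arrays, with a gap of 1.03 between the highest wildtype and the lowest deficient value. The group means were 3.18 ± 0.25 and 4.61 ± 0.16 (SD, n = 3 each), a log2 difference of 1.43 ± 0.15 (SE from limma), or 2.70-fold. Taking each deficient array against each wildtype array, the fold ran from 2.05 to 3.50. This was the difference that led to the choice of the family, and it ranked 9th among the rises, and 18th in size among rises and falls together, of the 22180 genes.

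The wildtype values of Trim66 lay around the array medians of 3.08 to 3.16, and the table has no detection call. As a measure of what an absent transcript can read, Xist, the RNA of the inactive X chromosome, stood at 2.93 and 3.08 on the arrays where it was low, and 3 Y-linked genes read 1.20 to 2.07 on the 4 arrays where Xist was high. Background differs between probe sets, so whether wildtype islets expressed Trim66 was not resolved, and its fold is not exact.

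The paralogs did not pass the test (limma, Benjamini-Hochberg adjusted p under 0.05 over all 22180 genes). Trim24 (probe set 17457345, chromosome 6) read 7.15, 7.08 and 7.19 in wildtype and 7.40, 7.12 and 7.59 in Sel1L-deficient islets. Its values overlapped, since Sel1L-deficient replicate 2 lay between wildtype replicates 2 and 1. The difference was 0.23 ± 0.13 (SE, limma adjusted p = 0.675), with a 95% interval of -0.08 to 0.53. It was 0.12 without Sel1L-deficient replicate 3 and 0.35 without Sel1L-deficient replicate 2.

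Trim28 (probe set 17473832, chromosome 7) read 7.73, 7.80 and 7.57 in wildtype and 7.54, 7.60 and 7.54 in Sel1L-deficient islets. The deficient arrays were lower except that replicate 2 exceeded wildtype replicate 3. The difference was -0.14 ± 0.10 (SE, limma adjusted p = 0.74), with an interval of -0.38 to 0.10. Without wildtype replicate 2 it was -0.09.

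Trim33 (probe set 17401180, chromosome 3) read 7.35, 7.14 and 7.25 in wildtype and 7.29, 7.30 and 7.03 in Sel1L-deficient islets, and the groups overlapped throughout. The difference was -0.04 ± 0.12 (SE, limma adjusted p = 0.955), with an interval of -0.31 to 0.23, and it turned to 0.01 without wildtype replicate 1 and to 0.05 without Sel1L-deficient replicate 3. On the fold scale the 3 intervals ran from 0.946 to 1.45 for Trim24, from 0.767 to 1.07 for Trim28 and from 0.806 to 1.17 for Trim33. Differences within these bounds were not resolved. The fold of Trim66 was chosen on this contrast and is not exact, so it is not set against them. Levels of the 4 genes were not compared with each other, since each probe set has its own response.

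**Figure D1:**
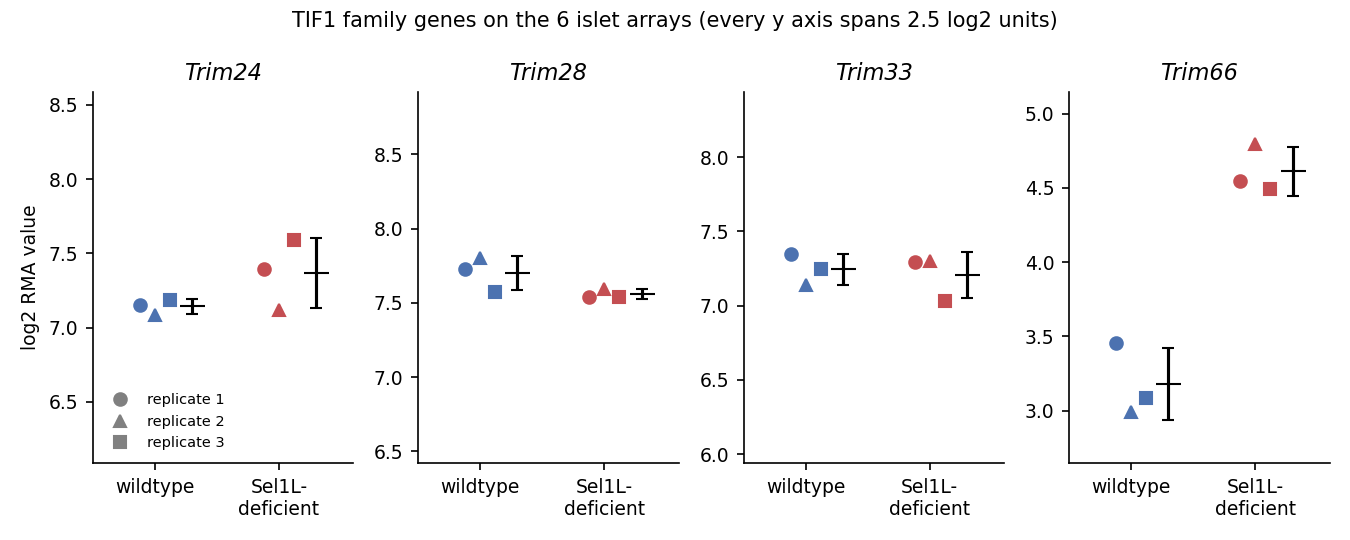
log2 RMA value (y axis) of each TIF1 family gene on the 3 wildtype (blue) and 3 Sel1L-deficient (red) arrays, with symbols for the replicate number, and bars for the mean ± SD of each group. The groups are apart for Trim66, at 2.99 to 3.46 and 4.49 to 4.80, and overlap for Trim24, Trim28 and Trim33.

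Of the 4 members 1, Trim66, was past the limma threshold, where 0.0902% of all genes were called higher and 0.243% in either direction. In the same way 1 of the 4 had all 3 deficient arrays above all 3 wildtype arrays, as 7.22% of all genes did. Since Trim66 was chosen on this contrast, nothing is read from these counts.

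The arrays were labelled female, but Xist was low and Y-linked transcripts were high (5.39 to 7.31) on replicate 3 of each genotype. On the 4 arrays with high Xist the difference of Trim66 was 1.45, and between the other 2 arrays, 1 of each genotype, it was 1.40. The same pair of values was 0.14 and 0.40 for Trim24, -0.20 and -0.03 for Trim28, and 0.05 and -0.22 for Trim33. With 1 array against 1 in the second set, these pairs are values only, and no likeness or difference between the sets is read from them.

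The targeted gene followed the labels. Sel1l was 1.87-fold lower in Sel1L-deficient islets, at 7.65 to 7.73 against 8.46 to 8.76 (limma adjusted p = 0.0312). Leaving out any 1 array gave an adjusted p of 0.0829 to 0.14 and differences of -0.97 to -0.82. The islet hormone genes read near the top of the scale on all 6 arrays, with Gcg at 12.5 to 12.7, Sst at 12.4 to 12.6 and Ins2 at 10.4 to 11.2.

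Markers of several cell types moved along with Trim66. All 9 measured β-cell markers were lower in Sel1L-deficient islets, where 11114 of all 22180 genes were higher. The falls were uneven. Past the limma threshold were 4 of the 9, where 0.153% of all genes were called lower. These were Mafa (-2.11), Ucn3 (-1.995), Slc2a2 (-1.38) and G6pc2 (-0.91). The other β-cell markers ran from -0.66 for Pdx1 to -0.07 for Slc30a8, with Iapp at -0.09. The summed linear level of the 9 was 11712 to 13493 in wildtype and 8875 to 9200 in deficient islets. All 12 endothelial markers were higher (0 past the threshold, median difference 0.43), with sums of 1267 to 1665 and 1843 to 2128. All 12 mesenchymal markers were higher as well (0 past the threshold, median 0.43), with overlapping sums of 761 to 1070 and 1007 to 1356. Of the 9 leukocyte markers 3 were higher, with sums of 258 to 324 and 234 to 280, and of the 8 Schwann cell and neuron markers 3 were higher, with sums of 1232 to 1318 and 1158 to 1346.

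Among the remaining types, all 4 α-cell markers were higher (sums of 9907 to 10225 and 10519 to 10954), as were 5 of 6 δ- and PP-cell markers (14507 to 15783 and 15534 to 17387). Each of the 6 acinar markers was lower, with sums of 3315 to 8176 and 2005 to 7542, and 2 of 5 duct markers were higher (265 to 315 and 235 to 287). RMA values have no 0. The defining markers Ptprc of leukocytes (2.98 to 3.71), Sox10 of Schwann cells (2.96 to 3.82) and Krt19 of ducts (2.64 to 3.96) lay around or little above the array medians. The part of these shifts in the Trim66 difference was not tested. In whole islets, fewer cells of a type and less RNA per cell cannot be told apart.

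Other genes of the TRIM family gave no call. Of 59 other TRIM genes measured, 0 rose and 0 fell by limma over all genes, where 0.243% of all genes were called either way. With that share, 0 is the likely count for a list of this length or shorter. At an unadjusted p under 0.05 (limma) there were 4, against 9.48% of all genes. With a trended, robust prior limma called 0. Their median difference was -0.01, against 0.00044 over all genes, and 29 of the 59 were higher. The largest differences on the higher side were 0.49 for Trim42, 0.31 for Trim14 and 0.30 for Trim9, a ubiquitin ligase of neurons, and on the lower side -0.46 for Trim30d, -0.39 for Trim80 and -0.33 for Trim37, a ubiquitin ligase of centrosomes and peroxisomes. Trim42 read 2.02, 1.79 and 2.06 in wildtype and 2.34, 2.38 and 2.62 in deficient islets, below the array medians (limma adjusted p = 0.257). A second Trim42 probe set differed by -0.07. Trim37 read 8.15, 8.15 and 8.23 against 7.70, 7.93 and 7.94, lower on all 3 deficient arrays (limma adjusted p = 0.387). All 3 deficient arrays lay below all 3 wildtype arrays for 7.84% of all genes. With the family of 4 included, Trim66 had the largest difference of the 63 TRIM genes on either side. Since Trim66 was chosen on this contrast, nothing is read from that rank.

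**Figure D2:**
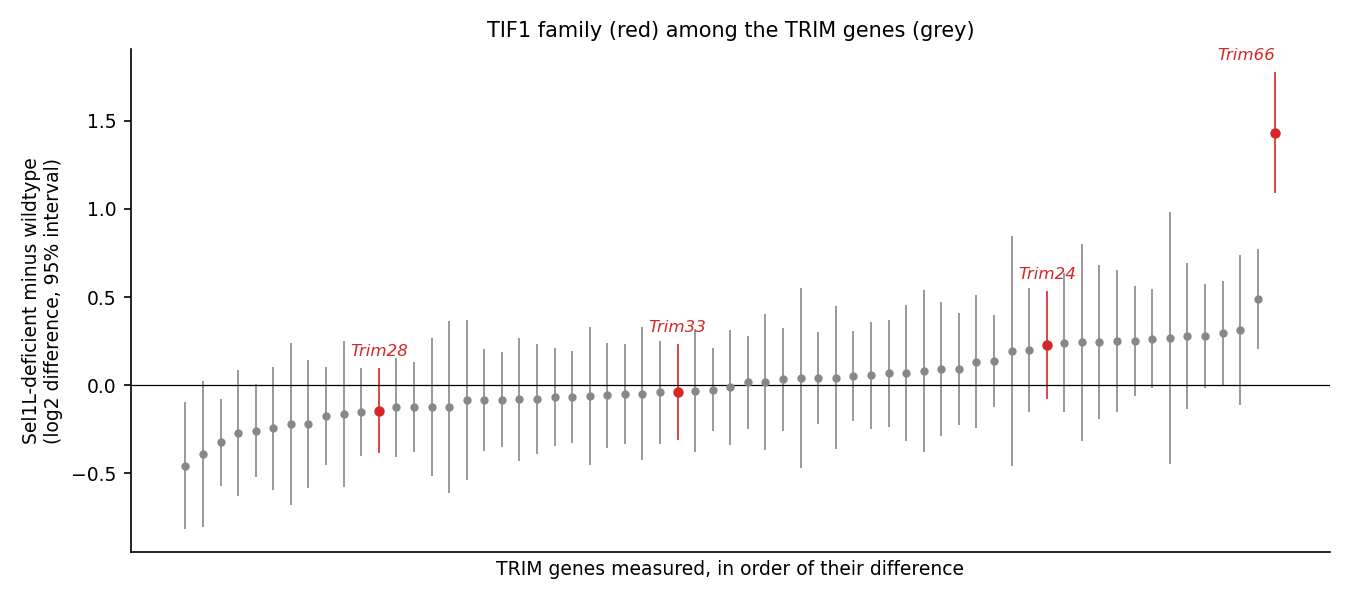
Sel1L-deficient minus wildtype log2 difference (y axis, point) with its 95% interval from limma (bar) for the 4 TIF1 family genes (red) and 59 other TRIM genes (grey), in order of the difference. Trim66, chosen on this contrast, stands at 1.43, and the next gene, Trim42, at 0.49. Trim28, Trim33 and Trim24 lie within the range of the other genes.

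Partners of the TIF1 proteins in gene silencing gave no call either. Of 14 measured genes of HP1 proteins and histone H3 lysine 9 or DNA methylation, 0 passed by limma over all genes, where 0.243% passed. At an unadjusted p under 0.05 (limma) there were 2, against 9.48% of all genes. The median of the 14 was -0.00096. Dnmt1, the maintenance DNA methyltransferase, differed by -0.41, with 6.84 ± 0.20 in wildtype and 6.42 ± 0.19 in deficient islets (SD over 3 arrays, limma adjusted p = 0.407). Pphln1, a HUSH complex subunit, differed by 0.35, with 6.74 ± 0.10 and 7.09 ± 0.11 (SD over 3 arrays, limma adjusted p = 0.37). Both had groups that did not overlap, as did 15.1% of all genes in either direction and, with the deficient arrays lower, 7.84%.

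Of 14 NuRD and histone deacetylase genes 0 passed (limma; 0 at an unadjusted p under 0.05), with differences from -0.21 for the NuRD helicase gene Chd3 to 0.10 for the histone chaperone gene Rbbp7. SUMO pathway genes, whose products modify Trim28, had 0 of 13 past the threshold (0 at an unadjusted p under 0.05), with a median of -0.07. They ranged from -0.20 for the SUMO protease gene Senp2 to 0.12 for Senp6. The 28 KRAB zinc finger genes had 0 calls (3 at an unadjusted p under 0.05, a share near the 9.48% of all genes), a median of -0.000055, and 14 members on each side of 0. The largest differences were -0.54 for Zfp708, where the groups overlapped, and 0.41 for Zfp932, both of which bind retroviral sequences. Limma with a trended, robust prior called 0 in each of these 4 lists. In the main fit 0.243% of all genes were called in either direction.

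Imprinted genes known to respond to the dose of Trim28 were the 1 list with a call. Of its 4 measured genes 1 fell by limma, Nnat, and 0 rose, where 0.153% of all genes were called lower. The list was drawn up with earlier results of these data known, so nothing is read from this count. Nnat, which encodes neuronatin, a small ER protein that aids insulin processing in β cells, read 6.52, 5.79 and 6.53 in wildtype and 4.92, 4.83 and 5.07 in deficient islets. All 3 deficient arrays lay below all 3 wildtype arrays, as for 7.84% of all genes. The fall was 2.53-fold (limma adjusted p = 0.0496). The call rested on the probe set: the other Nnat probe set differed by -0.35, and with the mean of both the difference was -0.84 (limma adjusted p = 0.168). Over 14 other settings the adjusted p ran from 0.00925 to 0.257, and 7 of them kept the call. Leaving out 1 array kept it without wildtype replicate 2, while it was 0.105 to 0.228 without any of the other 5 arrays.

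The other 3 imprinted genes did not pass. Peg3, an imprinted zinc finger gene, stood at 11.1 to 11.3 on all arrays with a difference of 0.10. Plagl1 differed by -0.22 and Cdkn1c, a cell cycle inhibitor, by 0.13, with values of 2.21 to 2.69 below the array medians.

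The Smad partners of Trim33 gave no call. Of 8 genes, 6 were higher, where 11114 of all 22180 genes were. By limma 0 passed, where 0.243% of all genes did, and 0 were called with a trended, robust prior. At an unadjusted p under 0.05 (limma) there was 1, against 9.48% of all genes. The median was 0.18. Smad4, the common Smad that Trim33 can ubiquitylate, read 8.16, 7.82 and 8.09 in wildtype and 8.36, 8.15 and 8.29 in deficient islets, a difference of 0.24 with overlap (limma adjusted p = 0.61). Smad2, which Trim33 binds, read 6.71, 6.79 and 6.79 against 6.57, 6.40 and 6.64. It was lower on all 3 deficient arrays, as 7.84% of all genes were, with a difference of -0.23 (limma adjusted p = 0.563). Smad3 differed by 0.30, the BMP-activated Smad1 and Smad5 by 0.06 and 0.11, and the inhibitory Smad7 by 0.26. Of the corepressors that bind Smads, Skil differed by 0.35 and Ski by -0.23. Smad1 turned to -0.06 without wildtype replicate 2.

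Readouts tied to Trim24 did not pass. Of 13 retinoid receptor and target genes 0 were called by limma, against 0.243% of all genes, and 0 with a trended, robust prior. At an unadjusted p under 0.05 (limma) there were 2, against 9.48% of all genes. Their median difference over all 13 was 0.12. That median was -0.02 on the 4 arrays with high Xist, 0.03 when wildtype replicate 3 was left out and 0.07 when Sel1L-deficient replicate 2 was. They ranged from -0.21 for the receptor gene Rarb to 0.49 for Dhrs3, a retinaldehyde reductase induced by retinoic acid, whose groups overlapped. Of 14 genes around p53, 0 were called by limma, against 0.243% of all genes, and 0 with a trended, robust prior. At an unadjusted p under 0.05 (limma) there were 2, against 9.48% of all genes. The median of the 14 was 0.03. Trp53inp1, a stress-induced p53 target, read 6.80, 6.85 and 6.78 in wildtype and 7.25, 7.17 and 7.39 in deficient islets. It was higher on all 3 deficient arrays, as 7.22% of all genes were, with a difference of 0.45 (limma adjusted p = 0.211). Zmat3 had the lowest difference, -0.13.

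Genes for other bromodomain proteins had 0 calls among 29 (limma), against 0.243% of all genes, and a median of 0.02. With a trended, robust prior 0 were called. At an unadjusted p under 0.05 (limma) there was 1, against 9.48% of all genes. The 1 was Cecr2, a chromatin remodelling subunit. It read 3.08, 3.10 and 2.83 in wildtype and 4.17, 3.52 and 3.84 in deficient islets, a difference of 0.84 (limma adjusted p = 0.16). Like Trim66 it started near the array medians, and all 3 deficient arrays lay above all 3 wildtype arrays, as for 7.22% of all genes. Atad2 had the lowest difference, -0.21.

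**Figure D3:**
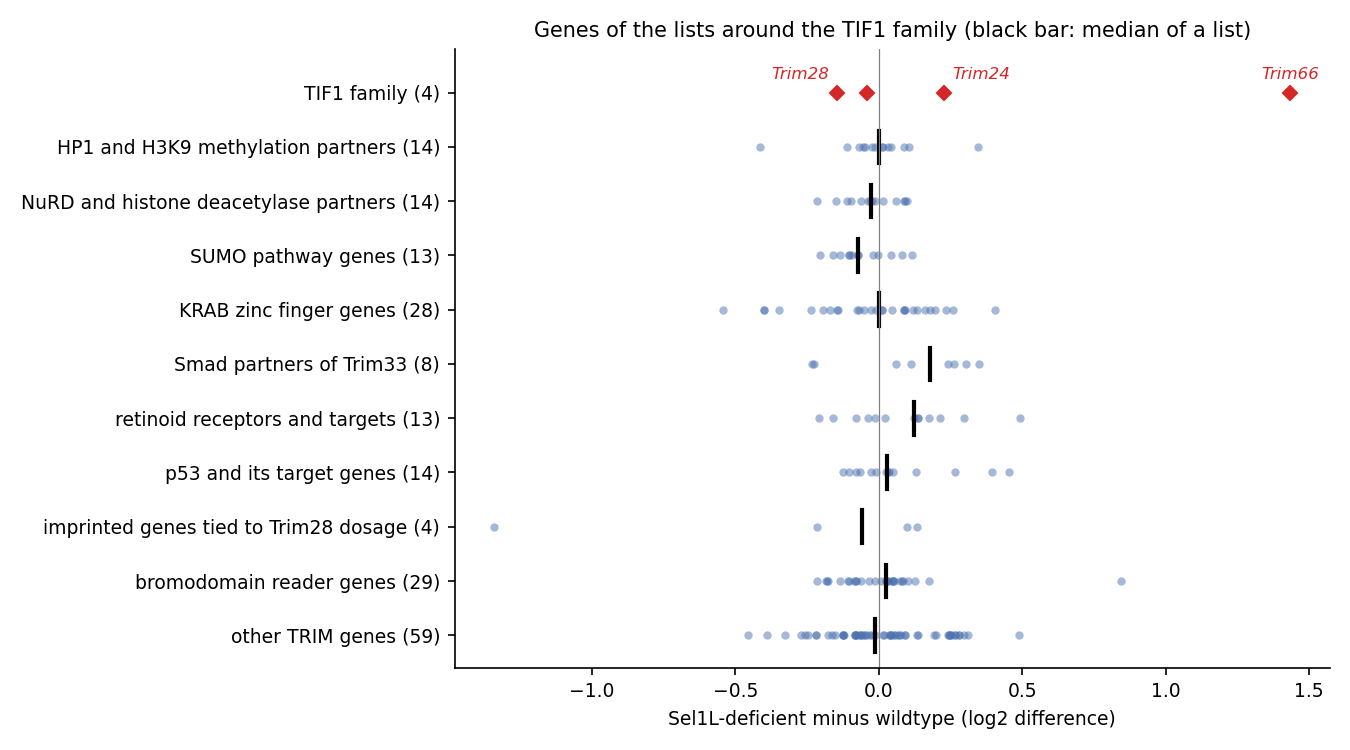
Sel1L-deficient minus wildtype log2 difference (x axis) of the 4 TIF1 family genes (red diamonds) and of each measured gene in 10 lists around them (blue points, with the number measured in brackets and a black bar at the median of each list). List medians run from -0.07 to 0.18, with Nnat at -1.34 and Cecr2 at 0.84 farthest from 0.

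Neighbouring genes of Trim66 on chromosome 7 were set beside it. The nearest measured gene on either side in the RefSeq table was Stk33, a kinase gene, which differed by 0.02 (2.23 to 2.46 over all 6 arrays), and Rpl27a, a ribosomal protein gene, by -0.06 (2.01 to 2.35). All of their values were below the array medians, so whether these 2 probe sets could show a change was not resolved. One gene farther out were Denn2b, with 0.16, and Lmo1, a LIM-domain transcription factor gene, with 0.79. Lmo1 read 3.66, 3.14 and 4.60 in wildtype and 4.41, 4.87 and 4.49 in deficient islets, with wildtype replicate 3 inside the deficient range (limma adjusted p = 0.493). None of the 4 passed the threshold (limma), which 0.243% of all genes did. The 12 measured neighbours of Trim24, Trim28 and Trim33 differed by -0.18 to 0.10, and none of them passed.

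The genes with the profile most like that of Trim66 were found by the root mean square distance between the values of 2 genes over the 6 arrays, each centred on its own mean. The 6 nearest were Pigr (distance 0.16), Cd44 (0.17), Tenm4 (0.19), Neurog3 (0.20), Kdelr3 (0.21) and Tmem255a (0.22). Likeness to Trim66 implies a rise of similar size, so these are descriptions with no test. Pigr, the epithelial receptor that carries immunoglobulins across cells, read 5.87, 5.39 and 5.13 in wildtype and 6.96, 7.19 and 6.57 in deficient islets, a difference of 1.44. As with Trim66, its highest wildtype value was replicate 1 and its highest deficient value replicate 2.

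Cd44, a hyaluronan receptor, read 6.71, 6.43 and 6.41 against 7.95, 7.85 and 7.48. Tenm4, a teneurin adhesion protein, read 5.11, 5.06 and 5.18 against 6.83, 6.85 and 6.53, and its second probe set differed by 0.65. Neurog3, which drives endocrine differentiation in the embryonic pancreas, read 5.80, 5.76 and 5.73 against 6.85, 7.09 and 6.74. Kdelr3, which retrieves escaped ER proteins from the Golgi, read 5.52, 5.26 and 5.42 against 6.50, 6.49 and 6.56. Tmem255a, a membrane protein gene, read 6.35, 5.39 and 5.64 against 6.90, 7.08 and 6.77. All 6 had every deficient value above every wildtype value, as 7.22% of all genes did. Their likeness to Trim66 favours this, so nothing is read from it.

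**Figure D4:**
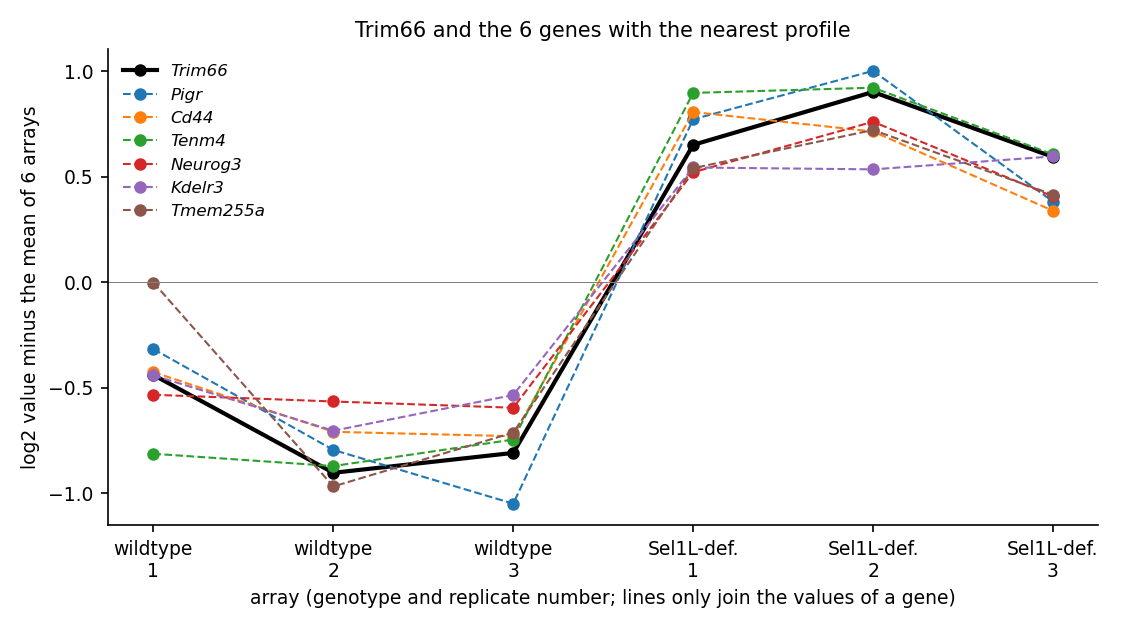
Centred log2 value (y axis, value minus the mean over the 6 arrays) of Trim66 (black) and of the 6 genes nearest to it (coloured) on each array (x axis). All 7 genes lie at or below 0 on the wildtype arrays and above 0 on the deficient arrays, at distances of 0.16 to 0.22 from Trim66.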

How the data were processed

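Islet RNA was read on whole-transcript arrays. RMA was the authors' summary method, per the submitters' processing notes. The deposited values were taken as log2 values, since all lay between 0.526 and 13.0. Its version, filters and log base: not given in the sources used here. RMA can compress large differences.

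Gene names came from the platform annotation. It gave 1 symbol for 23521 probe sets and several for 1814, while 16010 were unnamed here. Entrez identifiers of 23328 matched RefSeq (GRCm38.p6), and 0 symbols changed. Where a gene had several probe sets, the brightest over all 6 arrays stood for it, giving 22180 genes.

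Differences, Sel1L-deficient minus wildtype, were fitted over all genes with limma 3.58.1 in R 4.3.3 (lmFit, eBayes, two-sided) with Benjamini-Hochberg adjustment and a threshold of 0.05. Folds are 2 to the power of the log2 difference. Nothing says which animals the arrays held, so the p-values reflect only the spread between arrays, which may be technical. On 10 simulations of the 22180 genes, limma recovered 10.4% of genes at a log2 change of 0.5, 69.3% at 1 and 97.3% at 2, with 3.98% false calls. The small number of arrays limits the precision.

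The members, gene lists and tests were chosen with earlier results of these data known. Named genes were the members, called genes and the extremes of each list, all genes of lists of 8 or fewer, neighbours of members and the 6 genes nearest to Trim66, gene models being passed over. Cell type markers, Sel1l and sex-linked genes served as checks. Lists are described by counts and medians, with no set test. 13 list members were not analysed here. Alternatives were probe set means, brighter genes, another prior, repeated normalization, a replicate block, a sex-transcript covariate, fewer arrays.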

Additional observations from a re-analysis of the deposited data

How the results depend on the processing

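The difference of Trim66 was 1.34 to 1.57 when 1 array was left out and 1.42 to 1.45 in the 8 other alternatives. Its sign could not turn when an array was left out, since the gene was chosen for groups that do not overlap. For all 4 members the probe set mean, the brighter genes, the other prior, the block and the covariate give the same difference by construction. Trim24 ran from 0.12 to 0.35 and from 0.14 to 0.26, and Trim28 from -0.21 to -0.09 and from -0.20 to -0.13, and neither passed the limma threshold, with adjusted p of 0.498 to 0.868 and 0.567 to 0.867. Trim33 ran from -0.092 to 0.049 when 1 array was left out and was 0.049 on the arrays with high Xist, where its sign reversed (adjusted p of 0.882 to 0.996 over 14 alternatives). The cause was not tested.

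The background counts depended on the setting. The 20 genes called higher and 34 called lower became 44 and 89 with a trended, robust prior, 1 and 0 on the arrays with high Xist (limma, 2 against 2 arrays; 843 and 1022 at an unadjusted p under 0.05), and 1 to 13 and 3 to 16 when 1 array was left out. With fewer arrays the fit has less power. With the replicate block 14 and 22 were called. Replicate numbers are shared between genotypes. The correlations of same-numbered deviations from the group means were 0.105, 0.072 and 0.21, and the main fit treated the samples as sharing only a number. Each array did correlate best with its own number, and replicate 3 of both genotypes shared low Xist and high Y-linked transcripts. Both are hints from the data that same-numbered arrays may share more than a number.

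List medians near 0 had no stable sign. That of HP1 partners, negative as reported, was positive in 8 of 14 alternatives, that of NuRD genes in 2, that of KRAB genes in 3 and that of other TRIM genes in 4. The positive medians of the bromodomain, p53 and retinoid lists each stayed positive in 13. Among the 14, the other prior, the block and the covariate give the main median by construction, so these counts overstate stability. When 1 array was left out, the SUMO median ran from -0.11 to -0.04 and the Smad median from 0.12 to 0.21. The median of retinoid genes was -0.020 on the arrays with high Xist and 0.034 to 0.16 when 1 array was left out, that of the p53 list ran from 0.012 to 0.076 when 1 array was left out, and that of the imprinted list was -0.22 among genes above the median level, where Cdkn1c was not tested. Signal near background limits Trim66 itself.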
